A study of Mus musculus with 4 samples.

Results

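Among leukocytes sorted from mouse hindpaws, a small set of macrophages carried transcripts of both Ccl2, a chemokine that draws monocytes, and Cxcl1, a chemokine that draws neutrophils. These Ccl2/Cxcl1 macrophages were chosen by their own unique molecular identifier (UMI) counts, each UMI marking 1 captured transcript. A barcode was kept with at least 200 detected genes and at most 10% mitochondrial UMIs, and was chosen with at least 10 UMIs over the complement genes C1qa, C1qb and C1qc, no UMI of Lyve1 or Cd3e, at least 2 UMIs of Ccl2, at least 1 of Cxcl1 and at least 5 over both. The rule found 223 of 27800 kept barcodes, which was 0.802% of all of them, 3.45% of the 6455 barcodes with 10 or more C1q UMIs (C1q barcodes) and 10.3% of the 2155 C1q barcodes without Lyve1 or Cd3e. They are compared with the other 6232 C1q barcodes and, since the Lyve1 and Cd3e limits alone set part of that contrast, also with the 1932 of these without Lyve1 or Cd3e.

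The study profiled hindpaw leukocytes of male Lepr db/db mice (DB), whose leptin receptor lacks its signalling form and which grow obese and hyperglycaemic, and of wild-type littermates (WT) on the C57BLKS/J background, at 12 and 21 weeks. Both hindpaws were digested with warm collagenase, CD45+ cells were sorted, and 1 library of droplet 3′ single-cell RNA-seq was made from the pooled sorted cells of 2 to 3 mice for each genotype and age (12-week-WT and 21-week-WT for wild type, 12-week-DB and 21-week-DB for Lepr db/db). The Lepr lesion is present in every cell of the DB mice, and a pool carries no record of which mouse a cell came from. Every set of 4 values here gives WT and then DB at 12 weeks, followed by WT and then DB at 21 weeks. The libraries held 5998, 7463, 8208 and 9124 barcodes, of which 5271, 6552, 7270 and 8707 were kept. With 1 library a condition there is no test of any difference between conditions: intervals are 95% exact binomial or Poisson intervals, cover counting error only, and do not hold the spread between mice. The 12-week and 21-week matrices also name different software versions in their headers, so age cannot be told apart from library preparation and processing.

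Tissue macrophages bind microbial and damage products through Toll-like receptors and C-type lectins, and the kinase cascades below these receptors release the transcription factor NF-kB into the nucleus. Within minutes to hours NF-kB and the AP-1 factors switch on cytokines and chemokines, together with inhibitors such as Tnfaip3 and Nfkbia that shut the response down again. Enzymatic digestion of tissue is known to switch on early response and heat-shock genes in macrophages as well, and the levels of these genes are therefore given with the result.

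The barcodes were macrophages by their markers. The macrophage genes Csf1r, Cd68, Adgre1, Fcgr1, Mertk, Lyz2, Ctss and Cd14 had UMIs in the chosen barcodes of each library. Csf1r, the receptor for macrophage growth factor, stood at 733, 574, 564 and 468 CPM (the UMIs of a gene among each 1000000 UMIs summed over the barcodes), and Adgre1, which encodes F4/80, at 312, 195, 212 and 140.3 CPM, against 315, 211, 241 and 140.1 CPM in other C1q barcodes. Adgre1 was thus nearly the same in and outside the set in all 4 libraries. Transcripts of Nos2, the inducible nitric oxide synthase often used to mark classically activated macrophages in culture, were absent from the chosen barcodes, with 0 of 480342, 486179, 880094 and 726915 UMIs, which allows up to 6.25, 6.17, 3.41 and 4.13 CPM at a floor of 3 counts. Nos2 was seen in 0%, 0.173%, 0% and 0.0735% of other C1q barcodes, so its absence was not particular to the set.

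Markers of other leukocytes were present, and those of monocytes were high in 12-week-DB. The 5 neutrophil markers summed to 60.4, 69.9, 39.8 and 94.9 CPM in the chosen barcodes and to 234, 73.1, 76.0 and 241 CPM in other C1q barcodes. S100a8 was the most counted of them in each library except 21-week-WT, where Csf3r was, and Retnlg and Cxcr2 were at 0 in both 12-week libraries. The 5 monocyte markers summed to 456, 769, 277 and 155 CPM, led by Ccr2 at 443, 673, 260.2 and 118 CPM, to 217, 386, 231 and 105 CPM in other C1q barcodes, and to 531, 714, 565 and 264 CPM in those without Lyve1 or Cd3e. The set thus lay above the first reference in each library and below the second in 3 of 4. Barcodes outside the C1q group held 768, 602, 594 and 377 CPM of these markers, less than the set in 12-week-DB, where Ccr2 also stood above Csf1r. The monocyte marker Chil3 was at 0 in 12-week-WT and Plac8 in 12-week-DB. Mast cell markers summed to 198, 28.8, 145 and 30.3 CPM, T cell markers to 39.6, 14.4, 28.4 and 12.4 CPM, and stromal markers to 14.6, 6.17, 6.82 and 9.63 CPM. In other C1q barcodes the mast cell sums were 118, 30.7, 44.7 and 74.3 CPM, lower than in the set in both WT libraries. T cell markers there summed to 44.0, 64.3, 75.6 and 67.7 CPM and stromal markers to 44.6, 9.35, 13.1 and 4.45 CPM. The markers of innate lymphoid and NK cells summed to 66.6, 35.0, 137 and 215 CPM, led by Il7r in each library. In other C1q barcodes they summed to 48.0, 51.5, 76.1 and 121 CPM, lower than in the set except in 12-week-DB. Dendritic cell markers, led by Cd209a, summed to 89.5, 67.9, 87.5 and 48.1 CPM, above the 67.7, 38.6, 47.6 and 18.2 CPM of other C1q barcodes in each library, with 90.8, 64.2, 75.9 and 41.7 CPM in the second reference and Clec9a at 0 throughout the set. B cell markers, led by Ighm, summed to 133, 57.6, 60.2 and 16.5 CPM in the set and to 170.0, 54.9, 67.7 and 16.7 CPM outside it, with Ms4a1 at 0 in the set. The mast cell sum was led by Cma1 in 12-week-WT, 21-week-WT and 21-week-DB. What these transcripts contribute to the results was not tested. Scrublet, a doublet caller, marked 0, 2, 1 and 1 barcodes at its own threshold and so did not work as a caller. Ranked at an assumed rate of 0.8% per 1000 barcodes, which fixes the overall share, its scores put 3, 1, 6 and 9 of the chosen barcodes among the highest scores, or 7.32%, 2.70%, 8.57% and 12%, and 6.29%, 6.71%, 10.3% and 9.99% of other C1q barcodes. Of 27563 distinct barcode sequences 237 (0.860%) occurred in more than 1 library, 2 of them those of chosen barcodes, and no sequence was chosen in 2 libraries.

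The Ccl2/Cxcl1 macrophages numbered 41, 37, 70 and 75. They made up 2.47% (1.77 to 3.33), 2.09% (1.48 to 2.87), 4.41% (3.45 to 5.53) and 5.22% (4.13 to 6.50) of the C1q barcodes. Both 21-week shares lay above both 12-week shares. The 21-week over 12-week ratio of the shares was 1.79 (1.20 to 2.70) in WT and 2.49 (1.66 to 3.8) in DB, and the DB over WT ratio was 0.849 (0.530 to 1.36) at 12 weeks and 1.19 (0.844 to 1.67) at 21 weeks. A rule in UMIs admits deep barcodes more easily, so each C1q barcode was also thinned to 5000 UMIs, which left out 227, 146, 102 and 154 shallower barcodes. The shares were then 1.74%, 1.48%, 2.76% and 4.45%, and the ratios 1.58 (0.94 to 2.72) for age in WT, 3.0 (1.83 to 5.06) for age in DB and 1.61 (1.06 to 2.47) for DB over WT at 21 weeks. After thinning, the age ratio in WT had an interval that reached below 1, and 21-week-DB stood above the other 3 libraries. Over C1q barcodes without Lyve1 or Cd3e the shares were 8.20%, 5.75%, 12.2% and 17.2%, in the same order of libraries.

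**Figure D1:**
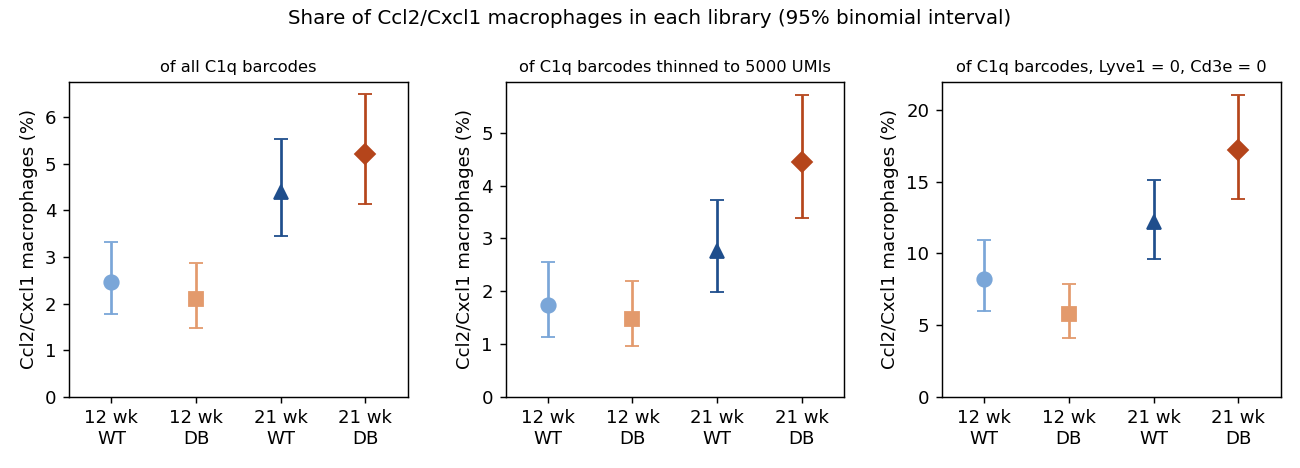
Share of Ccl2/Cxcl1 macrophages in each of the 4 libraries, in percent of all C1q barcodes (left), of C1q barcodes thinned to 5000 UMIs (middle) and of C1q barcodes without Lyve1 or Cd3e (right), with each vertical axis on its own scale. Bars are 95% exact binomial intervals, and in each panel 12-week-DB is lowest and 21-week-DB highest, at 2.09% and 5.22% on the left.

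The chemokine limits were also met outside the set. Among C1q barcodes with Lyve1, a receptor for hyaluronan that marks perivascular and other resident macrophages, 52, 30, 68 and 82 barcodes met them, or 4.73%, 2.95%, 7.38% and 8.86%, with the same order of libraries. Of the barcodes below the C1q limit, 26, 26, 55 and 69 met the limits, or 0.721%, 0.543%, 0.968% and 0.949%. Among barcodes with Cd3e, a T cell gene, the count was 1, 2, 2 and 6, or 0.120%, 0.119%, 0.116% and 0.264%, at median depths of 6273, 5504.5, 6933.5 and 5420.0 UMIs against 9201, 12439, 11011 and 8651 in the chosen barcodes. T cells should lack both chemokines, and their shares lay below the share in C1q barcodes in each library. The chosen barcodes held a median of 12 Ccl2 UMIs (2 to 218) and 14 Cxcl1 UMIs (1 to 390), and 196 of the 223 held 10 or more over both genes, while 13 sat at the Ccl2 minimum of 2 and 30 at the Cxcl1 minimum of 1. By the sum, 3 barcodes each at 3 and 4 UMIs fell just outside, and 8 at 5 and 6 at 6 UMIs just inside.

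Ccl2 and Cxcl1 chose the cells, so their levels are a description. Ccl2 (ENSMUSG00000035385, chr11:82035571-82037453, plus strand, GRCm38) stood at 1751, 2055, 2470.2 and 3282 CPM in the set and at 287, 125, 328 and 331 CPM in other C1q barcodes. Cxcl1 (ENSMUSG00000029380, chr5:90891241-90893115, plus strand) stood at 2461, 2468, 2518 and 4354 CPM in the set and at 84.2, 42.3, 207 and 429 CPM outside it. Both genes were highest in 21-week-DB in the set, and Cxcl1 outside it too. Each sits in a cluster of related chemokine genes: Ccl7, Ccl12 and Ccl8 follow Ccl2 on chromosome 11, up to position 82116799, and Cxcl3 (chr5:90786103-90789600) and Cxcl2 (chr5:90903871-90905938) flank Cxcl1.

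The promoters of the Cxcl genes are shown because these genes were high together and because their sequence can be set against the NF-kB site. The 250 bases before each RefSeq gene start (GRCm38.p6) were searched on both strands for a 10-base NF-kB consensus, which is the run in capitals for Cxcl1 below with any base allowed at the fifth position. It occurred in 117 of 32851 promoters (0.356%) and in 29 of the 6350 with an entry among genes compared with other C1q barcodes (0.457%). Of the genes at least 2-fold higher in the set, described below, it occurred in 5 of the 108 with an entry (4.63%), and with Cxcl1, a gene of the rule, left out in 4 of 107 (3.74%). Ccl2, Il10 and Tnfsf9 had no entry and were not searched. The 5 were Cxcl1, Cxcl2, Cxcl3, Il6 and Nfkbia, of which Nfkbia was named after its values were seen. Cxcl2 and Cxcl3 are relatives of Cxcl1 in its cluster, so leaving out Cxcl1 does not make the count independent of the rule. Of the genes at least 2-fold lower, 0 of 68 held the run. These are too few to set against a share of 0.457%, and nothing is read from them. A match is a run of letters and does not show binding. The stretches around the matches are given 5′ to 3′ with the match in capitals, for Cxcl1 (chr5:90891149-90891208), Cxcl2 (chr5:90903777-90903836), Cxcl3 (chr5:90786003-90786062) and Il6 (chr5:30013045-30013104) on the plus strand and for Nfkbia (chr12:55492648-55492701) on the minus strand, where the match is the reverse complement.
Cxcl1: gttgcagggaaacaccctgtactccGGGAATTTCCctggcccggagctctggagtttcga
Cxcl2: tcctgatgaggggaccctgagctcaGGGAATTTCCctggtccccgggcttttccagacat
Cxcl3: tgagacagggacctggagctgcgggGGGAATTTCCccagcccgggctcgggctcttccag
Il6: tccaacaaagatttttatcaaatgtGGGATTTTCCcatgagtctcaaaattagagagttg
Nfkbia: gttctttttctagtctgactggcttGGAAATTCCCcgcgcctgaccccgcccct
The match began 71 bases before the start of Cxcl1, 97 before that of Cxcl2, 73 before that of Cxcl3, 44 before that of Il6 and 29 before that of Nfkbia, counted from the RefSeq starts of the promoter table, which are not the gene starts printed above. The letters were the same in the 3 Cxcl genes and differed at the open position in Il6.

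Against other C1q barcodes, 7889 genes passed a limit of 10 CPM (mean of both groups over the libraries) and 50 UMIs. Of these, 139 genes (1.76%) had at least 2-fold higher CPM in the Ccl2/Cxcl1 macrophages in each of the 4 libraries and 90 (1.14%) at least 2-fold lower, called higher and lower below. The rule chose cells on this same contrast, so nothing is tested or read from these counts. The median log2 ratio of all genes was -0.19, and centring each library on it gave 180 higher and 54 lower. With other C1q barcodes that also lacked Lyve1 and Cd3e as the reference, 87 of 7778 genes (1.12%) were higher and 7 (0.0900%) lower, and 84 and 5 of these were in both. Most of the lower genes thus lost the call against barcodes that also lacked Lyve1 and Cd3e.

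The remaining markers given for these cells were higher in each library. Tnf, the cytokine that starts many inflammatory cascades, stood at 999, 1236, 2122 and 1754 CPM in the set and at 188, 119, 292 and 430.2 CPM in other C1q barcodes. Tlr2, a receptor for bacterial lipoproteins, stood at 470.5, 485, 576 and 788 CPM against 148, 79.8, 148 and 152 CPM. Clec4e, which encodes Mincle, a lectin receptor for mycobacterial glycolipid and for dead cells, stood at 558, 769, 957 and 2256 CPM against 63.4, 93.0, 137 and 284 CPM. Ier3, an early NF-kB target that limits cell death, stood at 1545, 2588, 2320.2 and 3326 CPM against 389, 269, 531 and 764 CPM. In the set, Clec4e, Tlr2 and Ier3 were highest in 21-week-DB. The median log2 ratios were 2.64, 2.17, 3.02 and 2.13 for Tnf, Tlr2, Clec4e and Ier3, and 2.16, 1.79, 2.16 and 1.81 with the second reference.

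Of the CXC chemokines besides Cxcl1, 5 of 9 passed the limit and 3 were higher. Cxcl2, which acts with Cxcl1 on neutrophils through Cxcr2, stood at 6014, 7867, 10078 and 20694 CPM in the set and at 421, 288, 1052 and 2379 CPM outside it. Its level in 21-week-DB was the highest of the 4 libraries in both groups of barcodes. Cxcl3, the third neutrophil chemokine of this locus, stood at 39.6, 167, 61.4 and 282 CPM against 6.80, 12.2, 11.3 and 11.9 CPM. In 12-week-WT 68.4% of the Cxcl3 UMIs were in 1 of 5 cells that held any, and with each gene's highest chosen cell left out 2 CXC genes, without Cxcl3, were higher. Cxcl10, an interferon-inducible chemokine for T cells, stood at 1020.1, 699, 526 and 484 CPM against 62.3, 59.4, 84.2 and 76.3 CPM, and was highest in 12-week-WT. Of 10 further CC chemokines, 9 passed, 3 were higher and 1 lower. Ccl4 and Ccl3, which draw monocytes and T cells, had median log2 ratios of 2.95 and 2.09, and Ccl7, a monocyte chemokine, one of 2.69. Ccl24, an eosinophil chemokine, was the lower one at -1.62, with 33.3, 18.5, 39.8 and 27.5 CPM in the set. Against the second reference Ccl24 had a median of -0.86 and was not called.

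Of 16 cytokine genes 11 passed and 7 were higher. The log2 ratios of Il1a, Il6 and Il10 had medians of 3.59, 3.28 and 3.06. Il6, a driver of the acute-phase response, stood at 16.7, 61.7, 60.2 and 212 CPM in the set and at 2.79, 0.689, 8.38 and 16.3 CPM outside it. Il10, which restrains macrophage activation, stood at 210.3, 88.4, 383 and 275 CPM against 25, 11.4, 38.5 and 33.6 CPM, so that a suppressive cytokine was high beside the inflammatory ones. Il1b reached a median of 2.94 but was not called, since its ratio in 12-week-WT was below 2-fold, at 117 against 59.2 CPM. Tnfsf9, the ligand of the costimulatory receptor 4-1BB, was also among the higher genes, at 558, 574, 909 and 489.7 CPM against 63.0, 42.3, 115 and 140.4 CPM.

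Receptors were divided, while most NF-kB genes were higher than in other C1q barcodes. Of 15 pattern recognition receptors and adaptors in the files 11 passed, 4 were higher, namely Nlrp3, Clec4e, Tlr2 and Cd14, and 1 was lower, Tlr13, a sensor of bacterial ribosomal RNA named after its values were seen. Against the second reference Tlr13 had a median of -0.98 and was not called. Nlrp3, the sensor of the inflammasome that matures interleukin-1β, stood at 269, 290.0, 519 and 689 CPM against 24.2, 16.3, 61.2 and 65.6 CPM. Cd14, which passes lipopolysaccharide to Tlr4, stood at 627, 989, 978 and 1929 CPM against 243, 227, 333 and 364 CPM. All 25 genes of the list of NF-kB subunits and targets passed, 17 were higher and none lower, with a median log2 ratio of 1.65 beside -0.19 for all genes. Its largest ratios were those of Bcl2a1d, a survival gene of the Bcl2 family, at 2.95, and of the inhibitors Tnip3 and Tnfaip3 at 2.60 and 2.52, and of Nfkbiz, a nuclear cofactor of NF-kB, at 2.39. With the second reference 12 of the 25 were higher, at a median of 1.28. With each gene's highest chosen cell left out 12 were higher too, at a median of 1.51. Bcl2a1d has near-identical copies, so its reads may be split among them. Mir155hg, the host transcript of an inflammatory microRNA, stood at 18.7, 53.5, 61.4 and 102 CPM against 2.38, 1.77, 6.99 and 14.7 CPM.

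Enzymes, growth factors and an amino acid transporter followed. Of 12 inflammatory enzymes and related genes 10 passed and 3 were higher, namely Ptgs2, Acod1 and Plaur, the urokinase receptor. Ptgs2, the cyclooxygenase of prostaglandin synthesis, stood at 123, 257, 802 and 691 CPM against 16.1, 9.84, 74.9 and 44.3 CPM. Acod1, which makes itaconate, stood at 52.0, 26.7, 61.4 and 239 CPM against 3.08, 2.71, 13.7 and 21.5 CPM, and was highest in 21-week-DB. In 12-week-WT 96% of the Acod1 UMIs were in 1 of 2 cells that held any, and its call there rests on that cell. Thbs1, thrombospondin 1, had a median log2 ratio of 3.26 but was not called, since it stood at 6.25 CPM in 12-week-WT. Of 8 growth factors 7 passed and 3 were higher: Areg, Ereg and Hbegf, ligands of the epidermal growth factor receptor family, with medians of 3.59, 2.91 and 2.61. Areg stood at 169, 475, 109 and 546 CPM against 11.3, 18.5, 22.0 and 56.2 CPM. In 12-week-WT 53.1% and in 12-week-DB 72.7% of the Areg UMIs were in 1 cell, so no order of those 2 libraries is read, and at 21 weeks the level was higher in DB with at most 19.1% in 1 cell. Slc7a11, the cystine importer that feeds glutathione synthesis, stood at 87.4, 84.3, 100 and 303 CPM against 8.36, 6.89, 21.6 and 21.6 CPM. Flrt3, a membrane protein of cell adhesion and guidance, stood at 279, 208, 325 and 349 CPM against 13.5, 16.8, 51.3 and 36.5 CPM, with 91.8% of its UMIs in 1 cell in 12-week-WT. Single cells also held 64.4% and 72.0% of the Ptgs2 UMIs at 12 weeks, WT first, and 81.8%, 66.7%, 100% and 55.6% of the Ereg UMIs. With each gene's highest chosen cell left out, which lowers the set alone and was chosen after seeing the data, 95 of the 139 higher genes remained.

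**Figure D2:**
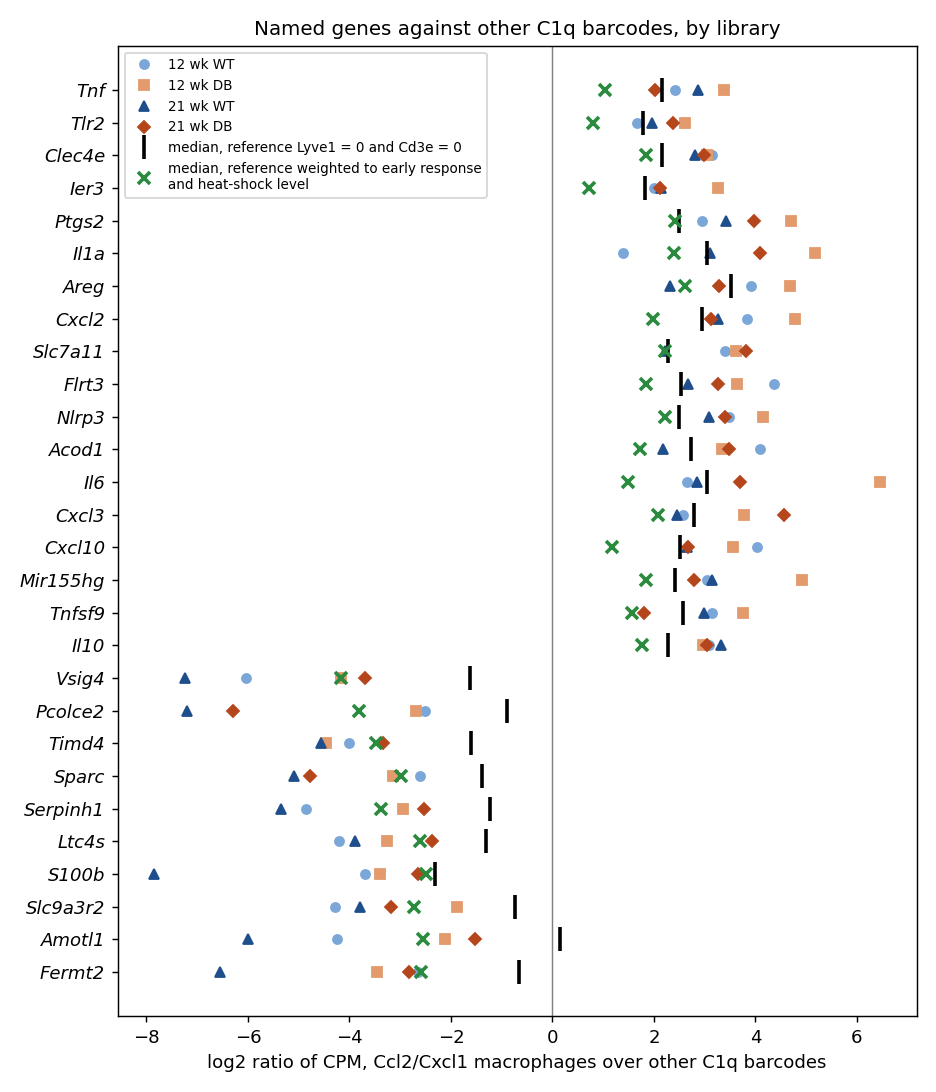
Log2 ratio of CPM in the Ccl2/Cxcl1 macrophages over other C1q barcodes (horizontal axis) for the 4 stated markers besides Ccl2 and Cxcl1, the other higher genes and the lower genes named by rule, with 1 symbol a library. The bar is the median against other C1q barcodes without Lyve1 or Cd3e and the cross the median against a reference weighted to the same early response and heat-shock level: the lower genes move toward 0 at the bar, as for Vsig4 from -5.10 to -1.62, and the higher genes toward 0 at the cross, as for Tnf from 2.64 to 1.04.

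Early response genes were high in the set, and heat-shock genes also lay above other C1q barcodes, mostly by less than 2-fold. Over all genes compared, 1.76% were higher and the median log2 ratio was -0.19. Of 25 early response genes all passed and 11 were higher, with a median log2 ratio of 1.38. Maff, Egr2, Nr4a1 and Zfp36, which encode transcription factors and an mRNA decay factor, had the largest ratios at 2.49, 2.26, 2.03 and 1.96. Of 14 heat-shock genes 13 passed and 2 were higher, Hspa1a and Hsp90aa1, with a median of 0.87, and the largest ratios were 1.33 for Hspa1a, 1.30 for Hspa1b, 1.21 for Hsp90aa1 and 1.18 for Bag3. With the second reference 5 early response genes and 0 heat-shock genes were called higher, and with each gene's highest chosen cell left out 8 and 0 were, the medians staying above 0 at 0.90 and 0.79 and at 1.09 and 0.70. Hspa1a and Hspa1b are near-identical, and their counts may be shared. Summed over the early response genes, the median cell of the set held 18846, 18490, 23393 and 18001 CPM, against 6146, 4275, 6464 and 6087 CPM in other C1q barcodes. When the C1q barcodes of each library were ranked by this sum and split into 3 equal parts, 92.7%, 94.6%, 92.9% and 86.7% of the set fell in the top part. By the heat-shock sum 70.7%, 89.2%, 67.1% and 72.0% did.

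**Figure D3:**
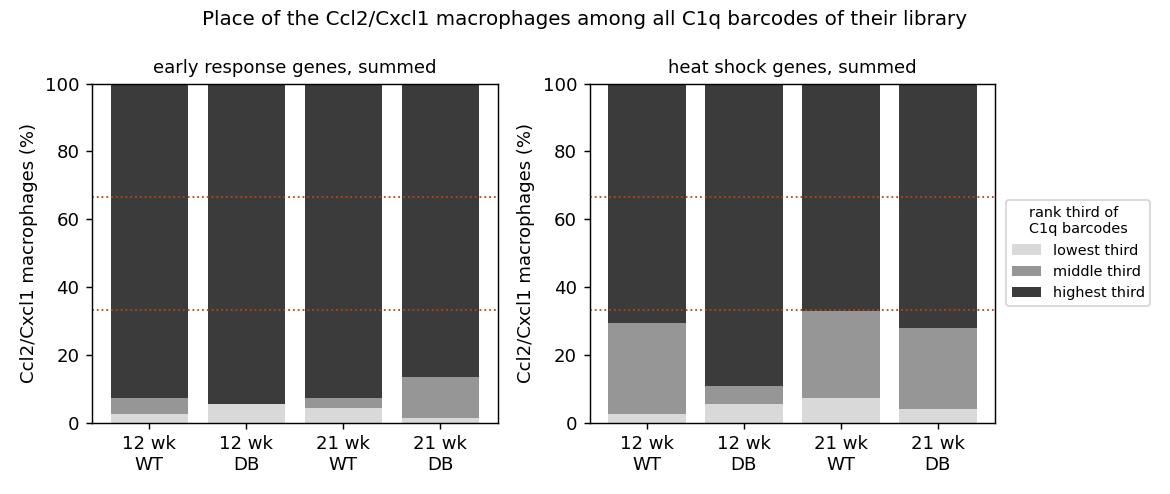
Percent of the Ccl2/Cxcl1 macrophages in the lowest, middle and highest of 3 equal parts of all C1q barcodes of their library, ranked by the summed CPM of early response genes (left) and heat-shock genes (right). Dotted lines mark where the parts would end if the set were spread evenly, and in each library most of the set lies in the highest part, 86.7% or more on the left and 67.1% or more on the right.

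The other C1q barcodes were therefore also weighted, within each library, to the set's summed level of early response and heat-shock genes, an alternative chosen after seeing the data. The set held a mean of 35128, 31133, 44764 and 37657 CPM of these genes, the weighted reference 33333, 30640, 43851 and 37606 CPM and the unweighted one 16424, 12090, 18392 and 19165 CPM. Of 7868 genes, 25 (0.318%) were then higher in all 4 libraries and 49 (0.623%) lower, and all 25 were among the 139. They were the chemokines Cxcl1, Cxcl2, Cxcl3 and Ccl2, the receptors and sensors Clec4e, Cd14, Nlrp3, Plaur and Ccrl2, the growth factors and cytokine genes Areg, Ereg, Clcf1 and Il1rn, the survival genes Bcl2a1a, Bcl2a1b and Bcl2a1d, and Ptgs2, Slc7a11, Mir155hg, Flrt3, Tnip3, Errfi1, Rab11fip1, Zc3h12c and Cdc42ep4. Tnf, Tlr2 and Ier3 fell out of the call, with medians of 1.04, 0.81 and 0.72. Of the NF-kB list 3 of 25 genes remained higher, and of the early response and heat-shock lists none. The weights give the reference the effective size of 454, 170, 354 and 436 barcodes. Since many cytokines are NF-kB and AP-1 targets as well, matching on these genes also takes out what they share with an inflammatory response, and induction in the paw and during digestion cannot be told apart.

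Genes of resident macrophages were lower. Of 15 resident receptors 14 passed, 6 were lower and none higher, with a median log2 ratio of -1.78. Vsig4, a complement receptor of resident macrophages, stood at 6.25, 14.4, 3.41 and 50.9 CPM in the set and at 478, 278, 604 and 664 CPM in other C1q barcodes. Timd4, a receptor for dying cells, stood at 2.08, 0, 1.14 and 2.75 CPM against 50, 22.5, 40.2 and 34.9 CPM, and Folr2, a folate receptor, at 79.1, 26.7, 12.5 and 28.9 CPM against 445, 263, 319.7 and 199 CPM. With the second reference 12 of the list passed, its median was -0.24 and none of the 12 was called. Timd4 missed the CPM limit there, and Vsig4 and Sparc had medians of -1.62 and -1.39 without a call. Of the 10 lower genes named by rule, 2 were still called there: Ltc4s, the leukotriene C4 synthase, at 10.4, 20.6, 14.8 and 61.9 CPM against 57.8, 58.1, 32.2 and 144 CPM, and S100b, a calcium-binding protein, at 6.25, 2.06, 0 and 16.5 CPM against 53.8, 9.45, 20.3 and 56.6 CPM. The others were Vsig4, Timd4, Pcolce2, Sparc, Serpinh1, Slc9a3r2, Amotl1 and Fermt2, the last 6 being genes of matrix, scaffold and adhesion. Pcolce2 had 0 UMIs in the set in 12-week-DB against 6.60 CPM in other C1q barcodes, which at a floor of 3 counts is at least 1.07-fold lower, so its call in that library rests on the 0.5 UMIs added to each count. Of the 90 lower genes 17 had a library at 0 in the set, and for 2 of them, Pcolce2 and Nbl1, which was named after its values were seen, the bound was under 2-fold.

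Antigen presentation depended on the reference. Of 8 MHC class II genes 7 passed and none was called, with a median log2 ratio of 0.99 to other C1q barcodes and of -0.34 to those without Lyve1 or Cd3e. H2-Aa stood at 4499, 4725, 7350.4 and 2550.5 CPM in the set, at 2857, 2149.6, 3885 and 916 CPM outside it and at 6530.5, 4239, 8631 and 3192 CPM in the second reference. A log-normalized H2-Ab1 value of 2 or more was reached by 56.1%, 81.1%, 87.1% and 34.7% of the set, 34.5%, 36.0%, 48.8% and 12.2% of other C1q barcodes and 70.4%, 61.6%, 85.3% and 38.8% of the second reference. The low share in 21-week-DB was thus common to all 3 groups of barcodes. Of 11 interferon-stimulated genes in the files 6 passed and 2 were higher, with medians of 2.69 for Isg15 and 2.41 for Oasl1. Of the lipid and lysosome genes 13 of 14 passed with 1 lower, Ctsk, a collagen-degrading cathepsin, at -1.52. Against the second reference Ctsk had a median of -0.51 and was not called. Of the glycolysis genes 12 of 12 passed with none called and Slc2a1, a glucose transporter, largest at 1.40.

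Part of the higher genes were also 2-fold higher in the Lyve1+ barcodes that met the chemokine limits, which the rule left out. All 139 had a median log2 ratio above 0 in those barcodes, over other Lyve1+ C1q barcodes. Of the 139 higher genes, 78 were also at least 2-fold higher in those barcodes, in each of the 4 libraries, over other Lyve1+ C1q barcodes, as were 107 of all 7889 genes compared (1.36%). Cxcl2 and Tnf had medians of 3.71 and 3.04 there, and Clec4e and Ptgs2 of 2.13 and 3.66. Those barcodes were taken with the same chemokine limits, so this is not independent of them.

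Cells of the set differed from each other. After thinning to 5000 UMIs, which left 40, 36, 65 and 69 cells, Cxcl2 was seen in 97.5%, 94.4%, 92.3% and 100% of the set, in 25.7%, 17.9%, 34.1% and 34.7% of other C1q barcodes and in 16.4%, 16.5%, 26.6% and 27.7% of Cd3e barcodes. Il1b was seen in 25%, 47.2%, 52.3% and 50.7% of the set, 7.74%, 6.06%, 16.2% and 11.6% of other C1q barcodes and 5.85%, 5.61%, 11.2% and 6.21% of Cd3e barcodes. Ptgs2 was seen in 7.5%, 11.1%, 30.8% and 31.9% of the set, 2.15%, 1.58%, 6.12% and 4.37% of other C1q barcodes and 1.55%, 1.73%, 4.61% and 2.28% of Cd3e barcodes. Clec4e was seen in 47.5%, 69.4%, 78.5% and 85.5% of the set, 15.2%, 23.4%, 22.1% and 33.7% of other C1q barcodes and 3.10%, 4.79%, 5.53% and 5.18% of Cd3e barcodes. Cxcl2 was therefore near-universal in the set, while Il1b and Ptgs2 were in part of it, and both 12-week libraries were below both 21-week libraries for Il1b, Ptgs2 and Clec4e. For each of these genes the 12-week-DB interval overlapped those of both 21-week libraries. For Il1b it was 30.4 to 64.5, against 39.5 to 64.9 in 21-week-WT and 38.4 to 63.0 in 21-week-DB. Within a library, the Spearman correlation over cells of Cxcl1 with Cxcl2 was 0.67, 0.84, 0.69 and 0.63 and that of Ccl2 with Cxcl1 was 0.20, 0.24, 0.23 and 0.18, over 41, 37, 70 and 75 cells that share a library and differ in depth. Cxcl1 and Ccl2 had both been used to choose the cells.

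Between conditions, a gene was counted at 2-fold among those whose mean over the libraries compared reached 20 CPM and whose UMIs in the set reached 20. DB against WT at 12 weeks, 181 of 5858 genes (3.09%) were higher and 340 (5.80%) lower. At 21 weeks 260 of 5339 (4.87%) were higher and 225 (4.21%) lower. At 21 against 12 weeks, 137 of 5718 (2.40%) were higher and 448 (7.83%) lower in WT, and 283 of 5501 (5.14%) were higher and 521 (9.47%) lower in DB. The median log2 ratio of all genes was -0.02, 0.01, -0.21 and -0.16 in these comparisons, and centring on it turned the WT age split into 226 higher and 240 lower and the DB age split into 386 higher and 335 lower. The comparisons share libraries, and each library holds 37 to 75 cells, so a single cell can set a value.

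**Figure D4:**
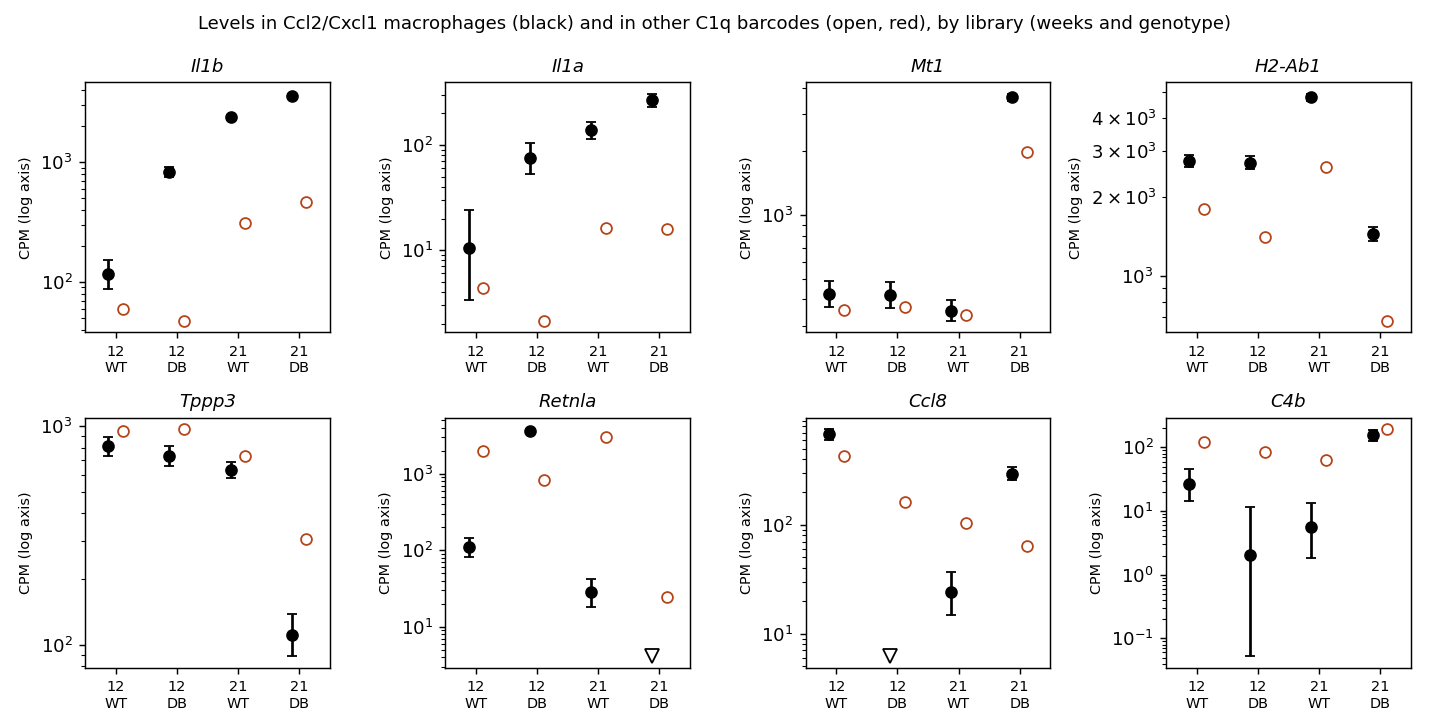
Level of 8 genes in the Ccl2/Cxcl1 macrophages (filled, with 95% exact Poisson intervals for counting error) and in other C1q barcodes (open) in each of the 4 libraries, in CPM on log axes. A triangle marks a library with 0 UMIs at the level of 3 counts, as for Retnla in 21-week-DB and Ccl8 in 12-week-DB, and Il1b and Il1a are higher in the set than outside it in each library while Mt1 is highest in 21-week-DB in both.

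Interleukin-1 genes stood higher at 21 weeks. Il1b, the secreted inflammasome product, stood at 117, 823, 2362 and 3573 CPM in the set, from 13, 19, 39 and 40 cells with a UMI, and at 59.2, 47.3, 311 and 461 CPM in other C1q barcodes. Il1a, its membrane-bound relative, stood at 10.4, 76.1, 139 and 268 CPM against 4.36, 2.12, 16.2 and 15.7 CPM. In 12-week-DB 64.9% of the Il1a UMIs were in 1 cell and 12-week-WT held 5 Il1a UMIs, so no order of those 2 libraries is read for Il1a. For both genes the set was higher in both 21-week libraries than in both 12-week libraries and highest in 21-week-DB, and the 21-week libraries were also the higher ones in other C1q barcodes. The age log2 ratio of Il1b was 4.33 (3.96 to 4.75) in WT and 2.12 (1.97 to 2.27) in DB, and 2.39 and 3.29 in other C1q barcodes. Of 11 cytokine genes that passed, 6 in WT and 7 in DB were higher at 21 weeks, beside 2.40% and 5.14% of all genes, and none lower, with medians of 1.09 and 1.76 beside 1.07 and 1.86 for the same genes in other C1q barcodes. Of 13 heat-shock genes that passed, 3 in WT and 4 in DB were also higher, none lower, with medians of 0.49 and 0.72. Of early response genes 4 of 25 were higher in WT and 1 of 24 in DB, none lower, with medians of 0.30 and 0.33. What digestion adds to these age ratios was not tested.

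At 21 weeks MHC class II genes were lower in DB than in WT and the metallothionein gene Mt1 was higher. All 7 MHC class II genes that passed were lower in DB than in WT, beside 4.21% of all genes, with a median log2 ratio of -1.53, and the median in other C1q barcodes was -1.95. Of the dendritic cell markers 1 of 2 that passed was lower too, with a median of -1.02. The B cell, monocyte and mast cell lists each had 1 of 1 lower, at -2.45, -1.13 and -2.51. The 1 neutrophil marker that passed was higher at 2.57, and the 1 innate lymphoid and NK cell marker was not called. H2-Ab1 stood at 1453 in 21-week-DB against 4792 CPM in 21-week-WT, and Ciita, the activator of these genes, at 17.9 against 79.5 CPM. Mt1, which binds zinc and copper and responds to glucocorticoids and metals, stood at 425, 419.6, 353 and 3613 CPM, with a UMI in 36, 33, 56 and 74 cells, and at 355, 369, 336 and 1989 CPM in other C1q barcodes. Its DB over WT log2 ratio at 21 weeks was 3.35 (3.18 to 3.53), and 2.56 outside the set. Tppp3, a tubulin-binding protein, stood at 812, 730.2, 633 and 111 CPM, at a log2 ratio of -2.50 (-2.86 to -2.17) and of -1.27 outside the set. C4b, a complement component, stood at 27.1, 2.06, 5.68 and 155 CPM, and Mgl2, a lectin of alternatively activated macrophages and dendritic cells, at 125, 30.9, 147 and 9.63 CPM. In 21-week-DB 25 of 75 cells held C4b, and its log2 ratio to 21-week-WT was 4.64 (3.51 to 6.42), against 1.61 in other C1q barcodes.

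At 12 weeks interferon-stimulated genes and resident receptors were lower in DB. All 5 interferon-stimulated genes that passed were lower, beside 5.80% of all genes. Their median log2 ratio was -2.59, and -1.21 in other C1q barcodes. The pass limit is on the mean of both libraries, so a gene high in 12-week-WT alone can meet it. That count and median therefore favour genes high in that library, and no size is read from them. Summed over all 11 genes of the list, passed or not, the set held 68 UMIs in DB (140 CPM) against 381 UMIs in WT (793 CPM). Outside the set the sums were 74.2 CPM for DB against 212 CPM for WT. Isg15, a ubiquitin-like protein, stood at 37.0 in 12-week-DB against 139 CPM in 12-week-WT, with a log2 ratio of -1.88 (-2.75 to -1.15), and Oasl1, a translational regulator of the response, at 69.9 against 231 CPM, with a log2 ratio of -1.71 (-2.32 to -1.16). Of 11 resident receptors 8 were lower, with a median of -1.53 and of -0.54 outside the set. At 21 weeks 5 of 12 were higher and 1 lower in DB, beside 4.87% and 4.21% of all genes. Their median was then 0.71 in the set and -0.34 outside it. Slfn5, an interferon-regulated gene, stood at 20.6 CPM in 12-week-DB against 148 CPM in WT of that age. Both lists were high in 12-week-WT, the library that the DB comparison at 12 weeks and the age comparison in WT share: 4 of 5 interferon-stimulated genes and 5 of 11 resident receptors were also lower at 21 weeks in WT, beside 7.83% of all genes. The same pass limit applies to these counts, and genes high in 12-week-WT alone can meet it here too. Markers of other cells differed at 12 weeks too, DB against WT. Of the monocyte markers 1 of 2 was higher, at a median of 3.42, and 2 of 2 mast cell markers were lower, at -2.73. In 12-week-DB 86.8% of the Chil3 UMIs were in 1 cell. The 1 B cell marker that passed was lower at -1.135, and no neutrophil or dendritic cell marker was called.

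Other chemokines varied widely between the libraries. Ccl8, a monocyte chemokine of resident macrophages, stood at 677, 0, 23.9 and 293 CPM, with a UMI in 9, 0, 3 and 14 cells. With a floor of 3 counts in each library at 0, it was at least 110-fold lower DB against WT at 12 weeks and at least 47.5-fold higher in 21-week-DB than in 12-week-DB. A single cell held 59.7% of the Ccl8 UMIs of 12-week-WT and another 45.1% of those of 21-week-DB, and without these cells the bounds were 44.2-fold and 26.1-fold. In other C1q barcodes Ccl8 stood at 426, 162, 104 and 63.1 CPM, with no library at 0. Ccl12 stood at 115, 2.06, 15.9 and 44.0 CPM, with a UMI in 16, 1, 7 and 10 cells and 1 UMI in 12-week-DB, and a log2 ratio DB against WT at 12 weeks of -5.23 (-11.13 to -3.26). Cxcl13, a B cell chemokine, stood at 52.0, 0, 0 and 598 CPM, with 9 of 75 cells in 21-week-DB and 42.5% of its UMIs in 1 of them. Ccl5, a T cell and monocyte chemokine, stood at 16.7, 8.23, 126 and 339.8 CPM, and was higher at 21 weeks in both genotypes. It was seen in 4, 3, 13 and 11 cells, with 42.3% of its UMIs in 1 cell of 21-week-WT and 30.4% in 1 cell of 21-week-DB. Its age log2 ratio in DB was 5.20 in the set, -0.21 in other C1q barcodes and -1.08 in those without Lyve1 or Cd3e.

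Several of the largest differences rested on single cells. Retnla, a secreted protein of alternative activation, stood at 110.3, 3651, 28.4 and 0 CPM, from 13, 10, 14 and 0 cells, and 1 of the 10 cells in 12-week-DB held 45.0% of its UMIs there. In other C1q barcodes Retnla stood at 1960.5, 823, 2993 and 24.7 CPM, so that 21-week-DB was lowest in both and 12-week-DB was highest in the set but not there. Its DB against WT log2 ratio at 12 weeks was 5.04 in the set and -1.25 in other C1q barcodes. In those without Lyve1 or Cd3e it was 0.66, the same direction as in the set. Thbs1 stood at 6.25, 315, 203 and 224 CPM, and 1 cell held 86.3% of its UMIs in 12-week-DB. In 12-week-WT 3 cells held a single Thbs1 UMI each, so the difference at 12 weeks rested mostly on that 1 cell. Gatm, a creatine synthesis enzyme, stood at 41.6, 311, 40.9 and 13.8 CPM, with 83.4% in 1 cell of 12-week-DB. Mcpt2, a mast cell protease, stood at 104, 14.4, 141 and 20.6 CPM, with 82.0% in 1 cell of 12-week-WT and 95.2% in 1 cell of 21-week-WT. The level of Mcpt2 thus followed 2 cells. Edn1, the vasoconstrictor endothelin 1, stood at 273, 47.3, 27.3 and 5.50 CPM, with 67.9% of its UMIs in 1 cell in 12-week-WT and 87.5% in 1 cell in 21-week-WT. Pgf, a relative of vascular endothelial growth factor, stood at 0, 4.11, 157 and 6.88 CPM, and Rnase2a, an eosinophil-type ribonuclease, at 0, 208, 1.14 and 11 CPM. In 21-week-WT 63.0% of the Pgf UMIs were in 1 cell, and in 12-week-DB 6 of 37 cells held Rnase2a. Itga6, a laminin receptor subunit, stood at 108, 41.1, 15.9 and 30.3 CPM and Ccnd1, cyclin D1, at 115, 105, 50 and 9.63 CPM, each highest in 12-week-WT.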

How the data were processed

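The deposited matrices hold UMI counts per gene and barcode, made by the authors with Cell Ranger against mm10 (version 5.0.0 per the labels, 5.0.0 and 6.0.0 in the headers of the 12- and 21-week matrices). Each condition was 1 library of pooled mice, and replicate libraries were not analysed here. The choice of barcodes and the gene lists were made with earlier results of these data known.

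UMIs were summed over the chosen barcodes and over reference barcodes of each library, given as CPM, and compared as log2 ratios with 0.5 UMI added. A gene was called at 2-fold in all 4 libraries. No test was run. Named genes were the markers, the 15 higher and 10 lower called genes with the largest median ratio, up to 4 in each direction of each condition comparison (with 100 CPM in one of the libraries and 50 UMIs), and 2 to 4 from each list. Intervals are exact (95%). Doublets were scored with Scrublet in Scanpy 1.11.5 and kept. Python 3.11.15, NumPy 2.4.6, SciPy 1.17.1 and pandas 2.3.3 were used. The calls and the ratio interval were tried on simulated Poisson sums. These hold no spread between cells and no choice of cells by their own counts, so neither was tried.

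Alternatives changed the mitochondrial limit (5%), detected genes (500), doublets, depth, chemokine limit, Lyve1 limit, reference, weighting, CPM limit, centring and single cells, and left out each library. Results for some genes are not reported here.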

Additional observations from a re-analysis of the deposited data

Results flagged for a closer look

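A few genes of the Ccl2/Cxcl1 macrophages moved in opposite directions under the same comparison in 2 groups, which drew attention to them. The difference between the groups was not tested, since each group is 1 library, and a value that meets a library at 0 UMIs is a bound from a floor of 3 counts. DB against WT, the log2 ratio of Ccl12 was -5.23 at 12 weeks and 1.44 at 21 weeks, and that of Ccl8 was -6.78 or lower at 12 weeks and 3.59 at 21 weeks. For Cxcl13 the bounds were -3.08 or lower at 12 weeks and 7.46 or higher at 21 weeks, with 80.0% of its UMIs in 1 cell of 12-week-WT. Without that cell Cxcl13 was at least 1.69-fold lower DB against WT at 12 weeks and at least 3.05-fold lower for age in WT. In other C1q barcodes the same ratios were -0.99 and -0.98 for Ccl12, -1.39 and -0.72 for Ccl8, and -0.76 and 1.21 for Cxcl13. The ratio of Gatm was 2.87 at 12 weeks and -1.52 at 21 weeks, with 83.4% of its UMIs in 1 cell of 12-week-DB. At 21 against 12 weeks, Ccl12 was at -2.81 in WT and 3.86 in DB, and Ccl8 at -4.79 and, as a lower bound, 5.57. For Cxcl13 the bounds were -3.93 or lower in WT and 6.60 or higher in DB. Ms4a6b, a membrane protein of the Ms4a family, was at -1.11 in WT and 2.95 in DB, with -0.41 and 0.32 in other C1q barcodes. These age and genotype ratios share their 4 libraries and are not independent of each other.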

How the results depend on the processing

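Limits: each condition is 1 library of 37 to 75 chosen cells, so between conditions only counting error is known, and a gene at 0 could be at 3.41 to 6.25 CPM. No paired analysis was possible because each group has 1 library and no test was run. Thinned to 5000 UMIs, the shares in 12-week-WT and 21-week-WT fell to 1.74% and 2.76%. With Lyve1+ barcodes admitted the shares were 5.59%, 3.79%, 8.68% and 10.9%, and over C1q barcodes without Lyve1 or Cd3e 8.20%, 5.75%, 12.2% and 17.2%. Genes higher than in other C1q barcodes numbered 87 with the second reference and 25 with the weighted one. Genes lower numbered 7 and 49 with these references, 30 at a limit of 50 CPM, 180 with none and 54 after centring. Leaving out each library in turn gave 151 to 208 higher and 110 to 147 lower genes, with 147 when 12-week-WT was left out. At 50 CPM the genes higher and lower were 55 and 104 in DB against WT at 12 weeks, 122 and 77 at 21 weeks, 55 and 134 for age in WT, and 141 and 198 for age in DB. Centring gave 226 higher and 240 lower for age in WT and 386 higher and 335 lower for age in DB. Without each gene's highest cell, chosen after seeing the data, 293 genes were lower for age in WT. The sign turned for Amotl1 with the second reference (0.14) and for Mcpt2 DB against WT at 21 weeks, at 2.10 without the highest Scrublet scores and 1.33 without its highest cell. The cause of these shifts was not tested, apart from the smaller sets of genes and cells that the limits leave.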
